A study of Mus musculus with 6 samples.

Results

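The genes described here are 10 that write, copy, read out or erase methyl groups on DNA: Dnmt1, Dnmt3a, Dnmt3b, Dnmt3l, Tet1, Tet2, Tet3, Uhrf1, Tdg and Zfp57. They were chosen by symbol, and all 10 were found among the 52636 Ensembl genes of the count tables and passed the filter on low counts that left 15816 genes to test. RNA was sequenced from E14, a mouse embryonic stem cell line, in 3 libraries of cells lacking an enhancer cluster (Enhancer cluster-KO, here knockout) and 3 libraries of unedited cells (WT, here wild type). Both groups had been grown in serum with LIF at 10 ng/mL, the MEK inhibitor PD0325901 at 1 µM and the GSK inhibitor CHIR99021 at 3 µM. Both were then moved to medium without these factors and given retinoic acid for 4 days, at 5 µM (written µm in the labels). The series title links the enhancer cluster to HoxB activation and to the formation of neural progenitors. Where the deletion lies, and how many knockout clones were used, was not given in the sources used here.

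DNA methylation in mammals sits mainly on cytosines of CpG dinucleotides. Dnmt3a and Dnmt3b place it on unmethylated DNA with the help of the inactive relative Dnmt3l, and Dnmt1, guided by Uhrf1, copies it to the new strand at replication. Tet enzymes oxidise the methyl group, Tdg cuts out the oxidised base, and Zfp57 protects methylation at imprinted loci. Stem cells held with MEK and GSK inhibitors are known for low DNA methylation, which rises when they leave that state. RNA levels, not methylation, were measured here.

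Depth was similar across the libraries, with 7780368 to 8521902 reads in genes in knockout libraries and 8208615 to 9472916 in wild-type libraries. Mitochondrially encoded genes held 2.58 to 2.89% of these reads in knockout libraries, against 1.67 to 1.73% in wild-type libraries. Knockout replicate 1 stood apart through genes over ribosomal RNA repeats, at 1.04% of its reads against 0.0726 to 0.118% in the other 5 libraries. Counts of genes are also given without it where they changed.

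The series text calls these cells neural progenitors, and their markers, listed as cell checks, were uneven in both groups. Rising or falling here means an adjusted p under 0.05 by edgeR, which 68.6% of all 15816 tested genes passed. Of all tested genes 34.5% rose and 34.0% fell. The share that passed was 75.0% of tested neural progenitor, 83.3% of neuron, 91.7% of pluripotency, 84.6% of endoderm and 100% of mesoderm and fibroblast markers. Of 12 neural progenitor markers 8 were tested, 3 rose and 3 fell, and their summed level was 137.0 to 142.7 CPM (the read count scaled to the library's total) in knockout libraries, against 409.5 to 427.7 CPM in wild-type libraries. Most of that difference lay in Nes, at 33.6 ± 3.49 CPM in knockout and 231.4 ± 6.84 CPM in wild-type libraries, and Cdh2, at 49.6 ± 1.68 and 142.9 ± 10.0 CPM (SD, n = 3 each). The 3 that rose were Pax6, at 4.76 CPM in knockout and 2.12 CPM in wild-type libraries, Dll1, at 8.06 and 4.62, and Msi1, at 34.9 and 27.5. The summed level therefore does not describe every marker of the list. Sox1 averaged 1.84 and 1.98 CPM in knockout and wild-type libraries, Fabp7 had 0 reads in every library, and Hes5 had 1 read in all. Of 6 neuron markers tested, 4 fell and 1 rose. Tubb3 fell most, at 2.04 CPM in knockout and 62.7 CPM in wild-type libraries, and Stmn2 fell least, at 54.9 and 65.5 CPM. Map2 was the 1 that rose, at 16.9 CPM in knockout and 5.47 CPM in wild-type libraries. Of 12 pluripotency markers, 8 fell and 3 rose (median log2 fold change, knockout over wild type, -1.20), and 8 fell and 2 rose without knockout replicate 1. Nanog averaged 32.8 and 163.8 CPM and Sox2 26.7 and 74.9 CPM in knockout and wild-type libraries. Rises were seen for Tfcp2l1, at 153.2 and 92.0 CPM, Klf4, at 64.2 and 52.7, and Pou5f1, encoding Oct4, at 200.6 and 184.0. Of 13 endoderm markers 10 rose and 1, Sox17, fell. Their summed level was 9819 to 10072 CPM in knockout libraries, against 3571 to 3627 CPM in wild-type libraries, and most of it came from Col4a1, at 4919.6 and 1901.6 CPM, and Lamb1, at 2900.0 and 875.1 CPM. All 7 tested mesoderm and fibroblast markers fell, with a summed level of 426 to 431 CPM in knockout libraries, against 2587 to 2615 CPM in wild-type libraries, led by Acta2 at 81.0 and 1016 CPM. In bulk RNA, fewer cells of a type and less RNA per cell cannot be told apart, and the part of such shifts in the results below was not tested.

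The promoters of these genes differ widely in their letters, and 4 of them are shown. They belong to the maintenance pair, Dnmt1 and Uhrf1, and to the 2 genes that rose most. Zfp57, which fell by at least as much as that pair, is not shown. The sequences are RefSeq's for GRCm38.p6, the build of mm10, running from 250 bases before to 50 bases after an annotated start. The RNA counts do not say which start was used, and RefSeq lists 3 for Dnmt1 and Dnmt3l, 2 for Uhrf1 and 1 for Tet2. In the first pair, from the maintenance genes Dnmt1 (chr9:20952574-20952873, minus strand) and Uhrf1 (chr17:56304063-56304362, plus strand), capitals mark letters of the E2F motif, bound by factors that switch on genes for S phase.
Dnmt1: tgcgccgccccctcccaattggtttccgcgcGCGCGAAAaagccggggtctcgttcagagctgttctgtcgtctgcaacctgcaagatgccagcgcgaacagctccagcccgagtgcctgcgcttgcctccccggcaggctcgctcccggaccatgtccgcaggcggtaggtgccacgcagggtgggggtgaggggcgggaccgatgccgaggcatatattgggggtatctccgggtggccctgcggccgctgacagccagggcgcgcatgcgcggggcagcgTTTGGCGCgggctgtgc
Uhrf1: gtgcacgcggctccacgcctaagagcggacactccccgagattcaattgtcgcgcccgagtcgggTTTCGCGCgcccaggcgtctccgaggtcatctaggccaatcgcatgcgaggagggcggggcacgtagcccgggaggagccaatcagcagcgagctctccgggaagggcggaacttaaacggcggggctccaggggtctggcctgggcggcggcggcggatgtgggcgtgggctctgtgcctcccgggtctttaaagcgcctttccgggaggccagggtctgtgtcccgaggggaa
The motif was searched on both strands as TTTCCCGC, TTTGGCGC, TTTCGCGC and TTTGCCGC. It was found in 744 of 32841 mouse promoter windows (2.27%), in 7 of 18 windows of listed S phase genes (38.9%), and in 2 of the 19 windows of the 10 genes, which are the pair above. The Dnmt1 window held it 219 bases before and 33 bases after the start, and the Uhrf1 window 185 bases before it. The windows shown for Dnmt1 and Uhrf1 are the only ones of these genes that held it. Each has 33 CpGs, against a median of 7 over all windows, so the 2.27% is not a background of like CpG content. In the other windows those letters were not found, including every listed start of Dnmt3b, Tet3 and Zfp57, which also fell. Other motifs were searched in the same windows. SP1 was found in 12 of the 19 windows of the 10 genes (63.2%), against 35.7% of all windows. The 19 windows have a median of 17 CpGs, so that background is not of like CpG content either. The CAAT box was found in 7 of the 19 (36.8%), against 37.4% of all windows. A retinoic acid response element of the DR5 form was found in 0 of the 19, and in 3 of all windows. A match describes letters and does not show binding.

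In the second pair, from the genes that rose most, Dnmt3l (chr10:78042037-78042336, plus strand) and Tet2 (chr3:133544341-133544640, minus strand), capitals mark CpG dinucleotides, the sites these enzymes act on.
Dnmt3l: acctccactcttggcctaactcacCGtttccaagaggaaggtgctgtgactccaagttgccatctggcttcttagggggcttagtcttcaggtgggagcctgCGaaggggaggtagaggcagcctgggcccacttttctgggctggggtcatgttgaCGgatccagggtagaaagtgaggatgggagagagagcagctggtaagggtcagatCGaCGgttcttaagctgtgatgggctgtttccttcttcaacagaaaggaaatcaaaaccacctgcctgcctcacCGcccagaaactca
Tet2: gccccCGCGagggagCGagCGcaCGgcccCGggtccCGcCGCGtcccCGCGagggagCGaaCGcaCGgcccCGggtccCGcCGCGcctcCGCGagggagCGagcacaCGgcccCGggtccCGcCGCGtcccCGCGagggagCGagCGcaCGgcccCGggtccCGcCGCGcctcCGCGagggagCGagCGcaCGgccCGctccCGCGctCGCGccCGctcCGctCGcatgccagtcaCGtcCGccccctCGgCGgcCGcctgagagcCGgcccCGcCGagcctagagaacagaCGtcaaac
The Tet2 window held 57 CpGs, more than in 99.8% of all windows, whereas the Dnmt3l window held 6, near the median of 7 over all windows. The other Dnmt3l starts had 4 and 3. The promoters of the 2 genes that rose most thus lie far apart in CpG content.

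Of the 10 genes, 5 fell in the knockout (Dnmt1, Uhrf1, Dnmt3b, Tet3 and Zfp57), 3 rose (Dnmt3l, Tet2 and Dnmt3a) and 2 did not pass the test (Tet1 and Tdg), with the threshold at an adjusted p under 0.05 (quasi-likelihood test in edgeR, Benjamini-Hochberg over all genes). Across all 15816 genes 68.6% passed, with 34.5% rising and 34.0% falling, so a count of 8 of 10 is near that background and is no result about these genes. The median log2 fold change, knockout over wild type, was -0.26 over the 10 genes and 0.0091 over all tested genes, and the median absolute value was 0.63 against 0.49. The ranges of the 2 groups were separate in 7 of the 10 genes, and in 70.9% of all tested genes. Without knockout replicate 1, 5 fell and 2 rose, because Dnmt3a no longer passed.

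**Figure D1:**
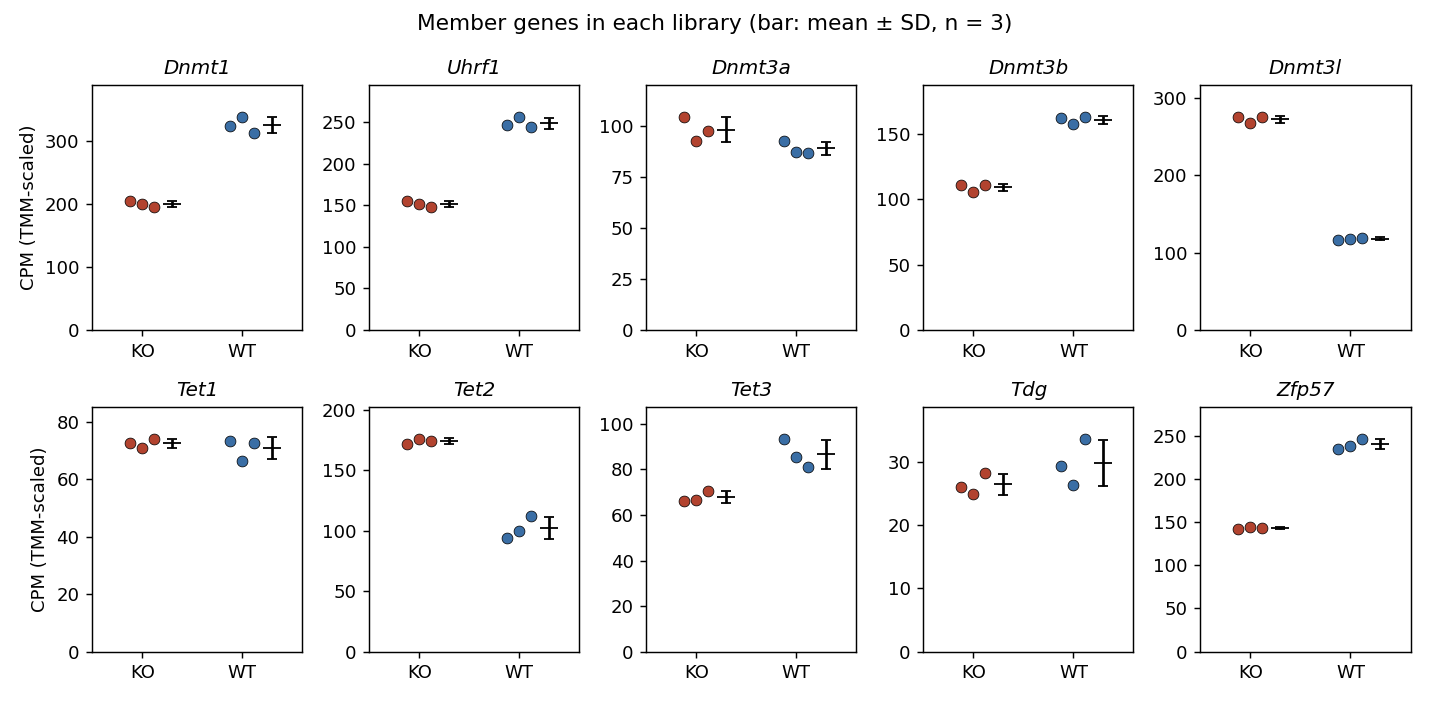
TMM-scaled CPM of each of the 10 genes in every library, with knockout (KO, red) left of wild type (WT, blue), and the mean ± SD of 3 libraries as a bar beside the points; each axis starts at 0. Groups stand apart for Dnmt1, Uhrf1, Dnmt3b, Dnmt3l, Tet2, Tet3 and Zfp57, and overlap for Dnmt3a, Tet1 and Tdg.

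**Figure D2:**
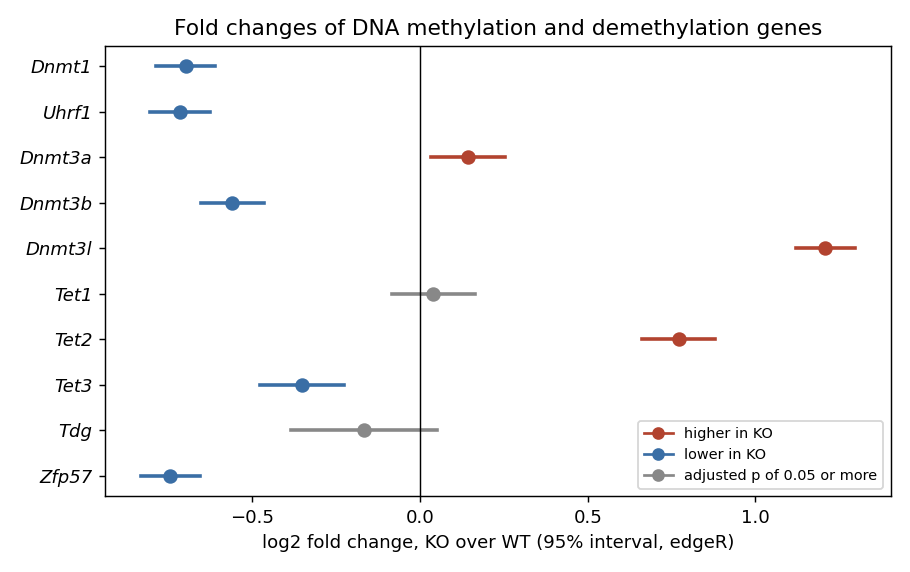
Log2 fold change of each gene, knockout over wild type, with its 95% interval from edgeR; red, higher in knockout; blue, lower; grey, adjusted p of 0.05 or more. Values run from -0.74 for Zfp57 to 1.21 for Dnmt3l.

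The maintenance pair was lower in the knockout. Dnmt1 (ENSMUSG00000004099, chromosome 9, 20907209 to 20959888, GRCm38), the methyltransferase that copies methylation at replication, had 204.8, 200.2 and 194.9 CPM in knockout replicates 1 to 3, against 323.8, 337.7 and 312.2 CPM in wild-type replicates. The highest knockout library lay well below the lowest wild-type library. The log2 fold change was -0.70 (SE 0.043, n = 3 per group), or 0.616 of the wild-type level, with an adjusted p by edgeR of 1.32e-13. Uhrf1 (ENSMUSG00000001228, chromosome 17, 56303321 to 56323486), which binds DNA methylated on a single strand and brings Dnmt1 to it, had 154.9, 151.9 and 148.6 CPM in knockout libraries, against 246.4, 256.7 and 244.6 CPM in wild-type libraries. Again the groups were far apart, and the log2 fold change was -0.72 (SE 0.043, adjusted p by edgeR 8.73e-14), close in size to that of Dnmt1.

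Uhrf2, the paralogue of Uhrf1, moved the other way. It had 297.6, 278.3 and 292.2 CPM in knockout libraries, against 163.0, 162.9 and 146.0 CPM in wild-type libraries, a log2 fold change of 0.88 (SE 0.047, adjusted p by edgeR 9.35e-15). Uhrf2 shares the domains of Uhrf1 but is not known to replace it in maintenance. All knockout values lay above all wild-type values.

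Among 13 tested partners of maintenance methylation, 6 fell and 3 rose, with a median log2 fold change of -0.093. The share that passed, 69.2%, is near the 68.6% of all tested genes. Pcna, the replication clamp that also binds Dnmt1, fell to 72.3 ± 0.64 CPM in the knockout, against 138.7 ± 3.50 CPM in wild type (log2 fold change -0.94, SE 0.047). Hdac1, a histone deacetylase, was at -0.56 (SE 0.048) and Ctcf, the insulator protein, at -0.54 (SE 0.046, with 7.61% of its exon length shared with the opposite strand), and both fell. Smaller falls were seen for Usp7, a deubiquitinase that stabilises Uhrf1 and Dnmt1, at -0.27 (SE 0.045), and for Hells, a remodeller needed for methylation of heterochromatin, at -0.26 (SE 0.048). Ehmt2, the histone H3K9 methyltransferase G9a, rose by 0.80 (SE 0.044). Cdca7, the partner of Hells, was at 0.15 (SE 0.053) and passed at an adjusted p of 0.0147 by edgeR, but not without wild-type replicate 3 (0.0855) or by DESeq2 (0.0701).

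S phase genes were lower in the same libraries as Dnmt1 and Uhrf1, both of which are known to be made mainly in cycling cells. Of 20 listed S phase genes, 15 fell and 2 rose (85.0% passed, against 68.6% of all tested genes), with a median log2 fold change of -0.46, against 0.0091 over all tested genes. Their summed level was 1678 to 1701 CPM in knockout libraries, against 2439 to 2505 CPM in wild-type libraries. Rrm2, a subunit of ribonucleotide reductase, fell by 1.39 (SE 0.055) on the log2 scale, Ccne1, encoding cyclin E1, by 1.40 (SE 0.077), and the helicase subunits Mcm5 and Mcm7 by 1.04 (SE 0.044) and 0.65 (SE 0.045). Opposite-strand exons overlap 8.70% of Mcm7. Without knockout replicate 1, 15 fell and 1 rose. The part of S phase in the falls of Dnmt1 and Uhrf1 was not tested.

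The de novo group split 3 ways. Dnmt3l (ENSMUSG00000000730, chromosome 10, 78041947 to 78063622), which has no catalytic activity and stimulates Dnmt3a and Dnmt3b, had 275.6, 267.2 and 275.1 CPM in knockout libraries, against 116.4, 118.2 and 119.5 CPM in wild-type libraries. The lowest knockout library lay far above the highest wild-type library, and the fold was 2.31. The log2 fold change was 1.21 (SE 0.043, adjusted p by edgeR 1.35e-18), larger in size than that of 85.2% of all tested genes. Aire, which runs on the opposite strand, shares 2.24% of the Dnmt3l exon length, and Aire itself was at 5.31 CPM in knockout and 1.83 CPM in wild-type libraries.

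Dnmt3b (ENSMUSG00000027478, chromosome 2, 153649450 to 153687730), the de novo enzyme of the early embryo, had 110.8, 105.9 and 110.6 CPM in knockout libraries, against 162.4, 157.4 and 163.1 CPM in wild-type libraries. The groups did not overlap, and the log2 fold change was -0.56 (SE 0.046, adjusted p by edgeR 3.81e-11). Dnmt3a (ENSMUSG00000020661, chromosome 12, 3806007 to 3914443), the de novo enzyme that persists in later tissues, had 104.6, 92.8 and 97.8 CPM in knockout libraries, against 92.9, 87.4 and 87.0 CPM in wild-type libraries. Here the groups overlapped, with knockout replicate 2 just below wild-type replicate 1. The log2 fold change of 0.14 (SE 0.053) passed at an adjusted p of 0.0198 by edgeR, but not without knockout replicate 1 (0.154), wild-type replicate 2 (0.0780) or wild-type replicate 3 (0.0839), nor by DESeq2 (0.0835). Counts per gene do not separate the long and short isoforms of Dnmt3a.

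The make-up of the family therefore differed between the groups. Dnmt3l made up 77.0 ± 0.27% of the summed CPM per kb of Dnmt3a, Dnmt3b and Dnmt3l in knockout libraries, against 51.7 ± 0.64% in wild-type libraries (SD, n = 3 each). Dnmt3b made up 18.0 ± 0.091% in knockout and 41.3 ± 0.46% in wild-type libraries, and Dnmt3a 4.99 ± 0.21% and 7.01 ± 0.28%. The sum itself was 118.5 ± 2.43 CPM per kb in knockout and 76.4 ± 0.77 in wild-type libraries. For each of these values the groups did not overlap, and the exact two-sided permutation p was 0.1, the smallest that 3 against 3 libraries allow, and also 0.1 after Benjamini-Hochberg adjustment over the 8 family values tested, so none could pass 0.05.

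**Figure D3:**
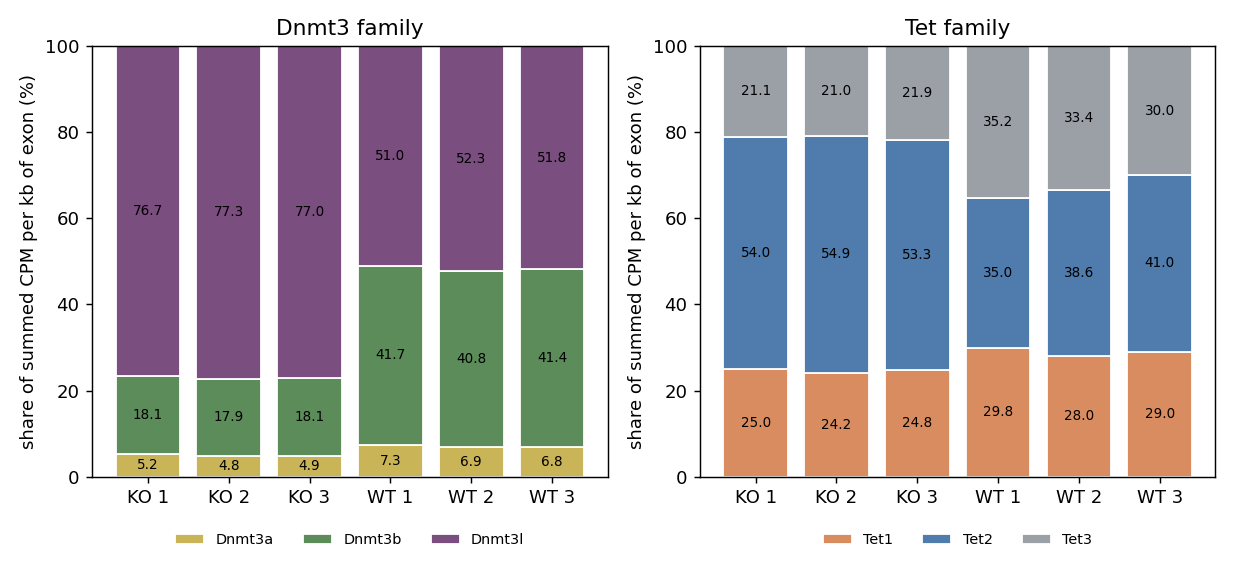
Share of each gene in the summed CPM per kb of exon of its family, in percent, for every library, with the Dnmt3 family on the left and the Tet family on the right; knockout libraries (KO) stand left of wild-type libraries (WT). Dnmt3l takes 76.7 to 77.3% of its family in knockout libraries and 51.0 to 52.3% in wild-type libraries; Tet2 takes 53.3 to 54.9% and 35.0 to 41.0%.

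The Tet genes, whose products oxidise methylated cytosine, also went 3 ways. Tet2 (ENSMUSG00000040943, chromosome 3, 133463679 to 133545139), the member without a CXXC DNA-binding domain of its own, had 171.5, 175.9 and 174.2 CPM in knockout libraries, against 93.9, 100.0 and 111.9 CPM in wild-type libraries. All knockout values lay above all wild-type values, and the log2 fold change was 0.77 (SE 0.053, adjusted p by edgeR 1.28e-12), a fold of 1.71. Tet3 (ENSMUSG00000034832, chromosome 6, 83362373 to 83459084), the form abundant in the egg and in later neural cells, had 66.2, 66.6 and 70.7 CPM in knockout libraries, against 93.5, 85.5 and 81.1 CPM in wild-type libraries. It fell by 0.35 on the log2 scale (SE 0.061, adjusted p by edgeR 1.35e-05), with the highest knockout library below the lowest wild-type library. Tet1 (ENSMUSG00000047146, chromosome 10, 62804570 to 62908996), the form best known from stem cells, had 72.7, 71.0 and 74.1 CPM in knockout libraries, against 73.3, 66.4 and 72.6 CPM in wild-type libraries. These values overlapped, with a log2 fold change of 0.04 (SE 0.060, 95% interval -0.085 to 0.16, adjusted p by edgeR 0.581), and without wild-type replicate 2 it was -0.01.

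Tet2 held 54.1 ± 0.76% of the summed CPM per kb of the Tet genes in knockout libraries, against 38.2 ± 3.02% in wild-type libraries. Tet3 held 21.3 ± 0.50% and 32.9 ± 2.64%, and Tet1 24.6 ± 0.42% and 28.9 ± 0.91%, in knockout and wild-type libraries. The sum was 19.07 ± 0.27 CPM per kb in knockout and 15.8 ± 0.43 in wild-type libraries. The groups did not overlap in any of these values, each again with an exact permutation p of 0.1.

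Among 12 tested partners and regulators of Tet enzymes, 6 rose and 4 fell (median log2 fold change 0.24; 83.3% passed, against 68.6% of all tested genes). Ogt, the sugar transferase that binds Tet proteins, rose by 0.35 (SE 0.040), and Cxxc5, a CXXC protein that binds Tet2, rose by 0.28 (SE 0.059). Its paralogue Cxxc4 had 6 to 10 reads in knockout and 9 to 16 in wild-type libraries, too few to test. Idh2, which makes the 2-oxoglutarate that Tet enzymes use, was at 0.66 (SE 0.046) and Sin3a, a corepressor scaffold that binds Tet1, at 0.49 (SE 0.051), and both rose. Gadd45b and Gadd45g, of a stress-induced family linked to demethylation, moved apart, with 1.00 (SE 0.053) for Gadd45b and -1.12 (SE 0.081) for Gadd45g. Prdm14, a stem cell factor that represses Dnmt3b and recruits Tet proteins, was scarce in both groups, with 13, 8 and 13 reads in knockout and 36, 40 and 36 in wild-type libraries. It fell by 1.61 (SE 0.32) on the log2 scale, in the same libraries in which Dnmt3b fell.

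Tdg (ENSMUSG00000034674, chromosome 10, 82629828 to 82650799), the glycosylase that removes cytosine forms oxidised by Tet, had 26.0, 25.0 and 28.2 CPM in knockout libraries, against 29.3, 26.4 and 33.6 CPM in wild-type libraries. The values overlapped, and the log2 fold change was -0.17 (SE 0.11, 95% interval -0.39 to 0.049, adjusted p by edgeR 0.16). With 200 to 274 reads per library it was the least counted of the 10 genes, which limits the precision of its value. Glt8d2, on the opposite strand and with 3 to 9 reads per library, shares 6.83% of its exon length, the most among the 10 genes.

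The repair steps after Tdg moved both ways. Of 15 base excision repair genes tested, 6 rose and 4 fell (median log2 fold change 0.24), and 5 rose and 5 fell without knockout replicate 1. The share that passed, 66.7%, is near the 68.6% of all tested genes. Polb, the polymerase that fills the gap, rose by 0.78 (SE 0.078), to 62.8 ± 1.91 CPM in the knockout, against 36.5 ± 3.47 CPM in wild type. Ung, a uracil glycosylase, fell by 0.77 (SE 0.10), and so did the endonuclease genes Apex1, by 0.77 (SE 0.059), and Apex2, by 0.83 (SE 0.12). Opposite-strand exons overlap 61.7% of the Apex1 exon length, and with the strand setting unknown its level is uncertain. Mbd4, a glycosylase that like Tdg acts on mispaired thymine at CpGs, rose to 37.1 ± 2.23 CPM in the knockout, against 18.0 ± 3.22 CPM in wild type (log2 fold change 1.04, SE 0.11).

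Zfp57 (ENSMUSG00000036036, chromosome 17, 37001163 to 37010635), a zinc finger protein that binds a methylated motif at imprinting control regions and recruits the corepressor KAP1, had the largest fall among the 10 genes. It had 142.2, 144.4 and 143.2 CPM in knockout libraries, against 235.1, 238.5 and 246.6 CPM in wild-type libraries. The 3 knockout values lay within about 2 CPM of each other and far below wild type. The log2 fold change was -0.74 (SE 0.043, adjusted p by edgeR 3.38e-14), or 0.597 of the wild-type level.

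Of 14 tested genes that act with Zfp57 or in KAP1 silencing, 7 fell and 2 rose (median log2 fold change -0.12). The share that passed, 64.3%, is near the 68.6% of all tested genes. Trim28, which encodes KAP1 itself, had 540.2, 564.0 and 591.7 CPM in knockout libraries, against 913.5, 908.4 and 939.8 CPM in wild-type libraries, a log2 fold change of -0.70 (SE 0.034) near that of Zfp57. Resf1, needed with Setdb1 for retroelement silencing, fell by 0.82 (SE 0.045), and Suv39h1, an H3K9 methyltransferase, by 0.78 (SE 0.052, 14.6% of exon length shared with the opposite strand). Setdb1, the methyltransferase brought in by KAP1, was at -0.13 (SE 0.047) and passed at an adjusted p of 0.0172 by edgeR, but not without wild-type replicate 1 (0.0942) or with upper-quartile scaling (0.0817). Its cofactor Atf7ip rose by 1.09 (SE 0.065), to 116.3 ± 6.43 CPM in the knockout, against 54.7 ± 5.90 CPM in wild type. Zfp445, the other zinc finger protein known to guard imprints, was at 0.03 (SE 0.045) and did not pass (adjusted p by edgeR 0.523).

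Levels between genes can be set side by side only per length, here as CPM per kb of the union of exons. In knockout libraries the order was Dnmt3l at 91.2 ± 1.58, Zfp57 at 37.8 ± 0.28, Uhrf1 at 35.6 ± 0.73, Dnmt1 at 27.1 ± 0.67 and Dnmt3b at 21.4 ± 0.54 CPM per kb. Tet2 followed at 10.3 ± 0.13, Dnmt3a at 5.91 ± 0.36, Tdg at 4.91 ± 0.31, Tet1 at 4.70 ± 0.10 and Tet3 at 4.06 ± 0.15. The only neighbours whose libraries overlapped were Tdg and Tet1. In wild-type libraries Zfp57 led at 63.4 ± 1.57, then came Uhrf1 at 58.5 ± 1.54, Dnmt1 at 44.0 ± 1.73, Dnmt3l at 39.5 ± 0.53 and Dnmt3b at 31.5 ± 0.60 CPM per kb. The other 5 lay between 4.58 for Tet1 and 6.04 for Tet2, and from Tet2 through Tdg and Dnmt3a to Tet3 each overlapped the next. Dnmt3l thus stood at rank 1 in knockout and rank 4 in wild-type libraries, or rank 3 there when the longest transcript was taken as the length. With that length Dnmt1 took rank 4, Dnmt3a rank 7 and Tdg rank 8 in wild-type libraries, and Tet3 rank 9 and Tet1 rank 10 in knockout libraries.

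**Figure D4:**
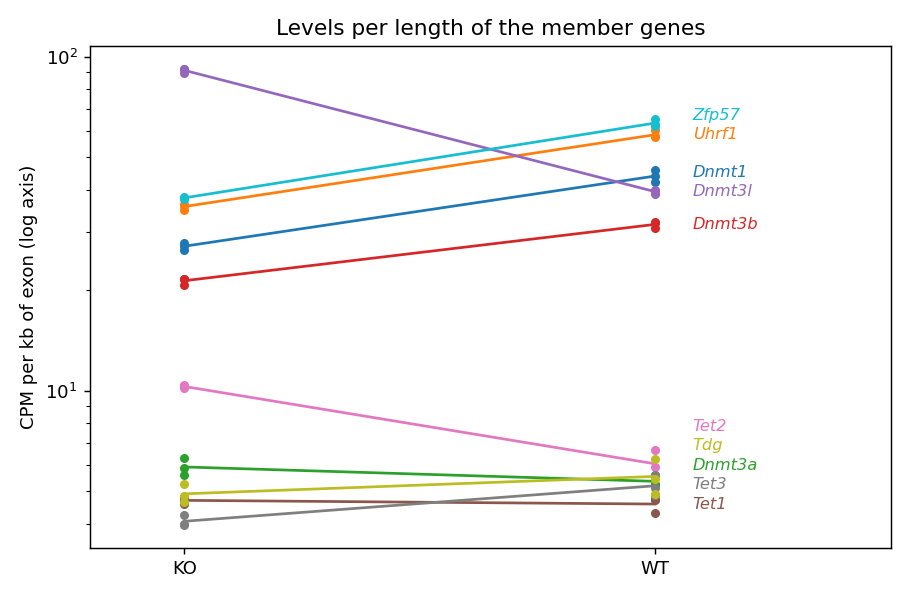
CPM per kb of exon on a log axis for the 10 genes, with each library as a point and the group means joined by a line; knockout (KO) is left of wild type (WT). Dnmt3l is at rank 1 in knockout, at 91.2 CPM per kb, and rank 4 in wild type, at 39.5.

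Genes of the families that hold the readers of methylated CpGs split evenly, with 4 higher and 4 lower among 10 tested (8 of 10 passed, against 68.6% of all tested genes). Not every protein of these families binds methylated CpGs, so the split is not one of readers alone. Mbd3, a relative that has lost strong methyl binding and sits in the NuRD complex, fell to 57.3 ± 3.32 CPM in the knockout, against 144.4 ± 5.53 CPM in wild type (log2 fold change -1.33, SE 0.052). The zinc finger readers Zbtb38 and Zbtb4 fell by 1.49 (SE 0.12) and 1.67 (SE 0.16) on the log2 scale. Mbd4, given above, was the largest of the rises.

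The supply of S-adenosylmethionine, the methyl donor of all Dnmt enzymes, held the largest single change among the pathway lists. Mat2a, the enzyme that makes it outside the adult liver, had 10.2, 8.36 and 13.0 CPM in knockout libraries, against 99.6, 74.9 and 55.2 CPM in wild-type libraries. The wild-type libraries varied by more than those of any of the 10 genes, yet the lowest was far above the highest knockout library. The log2 fold change was -2.86 (SE 0.17, adjusted p by edgeR 4.03e-14), larger in size than that of 98.6% of all tested genes. An antisense gene overlaps 11.3% of its exons, and the strand setting is not known. Of 16 genes of this supply and of folate metabolism that were tested, 7 fell and 2 rose (median log2 fold change -0.12), and the share that passed, 56.2%, lies below the 68.6% of all tested genes. Mthfd1l, Mthfd1 and Shmt2, which feed carbon units into folate, fell by 0.71 (SE 0.064), 0.54 (SE 0.044) and 0.54 (SE 0.043).

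Germline genes, many of which are held silent by promoter methylation in somatic cells, were listed as a further readout. Of 18 tested, 10 rose and 2 fell, with a median log2 fold change of 0.34; 66.7% passed, against 68.6% of all tested genes, of which 34.5% rose. Without knockout replicate 1 the counts were 10 and 1. Sycp2, of the meiotic chromosome axis, had 22.4, 24.7 and 21.8 CPM in knockout libraries, against 6.98, 7.02 and 7.49 CPM in wild-type libraries, a log2 fold change of 1.68 (SE 0.14). Brdt, a testis bromodomain protein, rose by 1.70 (SE 0.21) and Sycp1, of the synaptonemal complex, by 1.05 (SE 0.14). Tex19.1, which acts in germ cells and stem cells, fell by 1.78 (SE 0.16). Dazl, a germ cell RNA-binding protein and a standard example of methylation-dependent silencing, was at -0.13 (SE 0.10) and did not pass (adjusted p by edgeR 0.26). Its RNA was present in both groups, at 29.8 ± 3.62 CPM in knockout and 32.7 ± 1.90 CPM in wild-type libraries. Methylation of these promoters was not measured, and the list was chosen with earlier results of these data known.

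**Figure D5:**
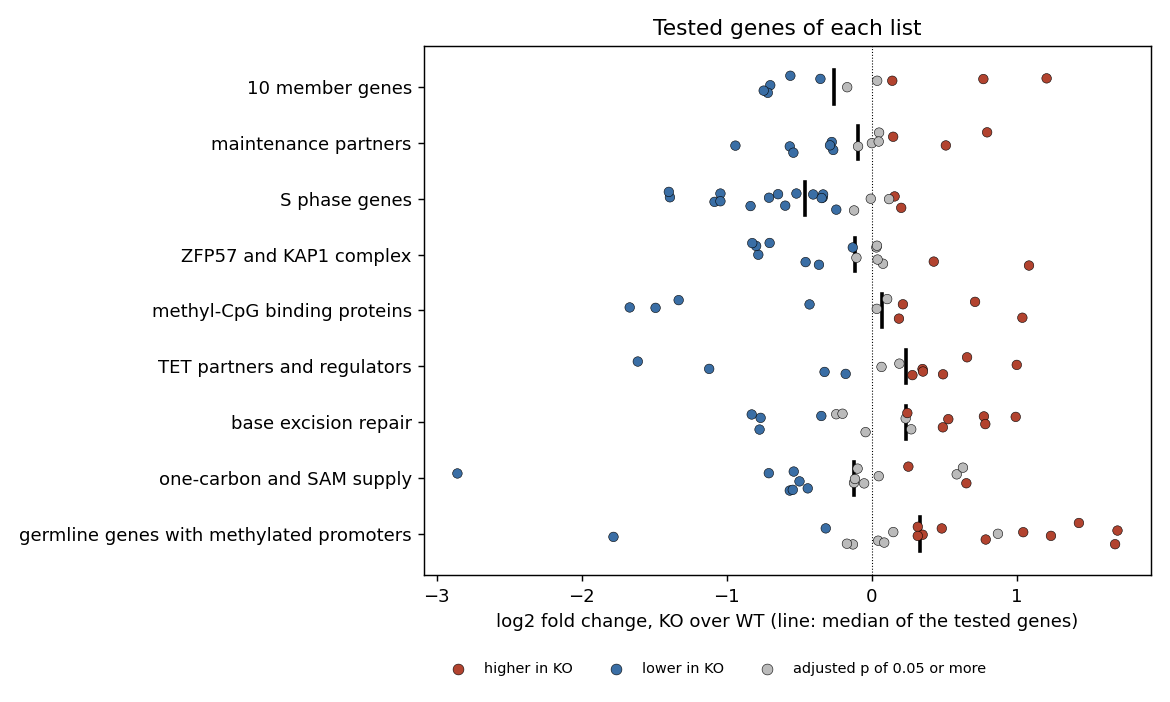
Log2 fold change, knockout over wild type, of every tested gene in the 10-gene set and in 8 lists of the surrounding pathway; red, higher in knockout; blue, lower; grey, adjusted p of 0.05 or more; the black line is each list's median. The S phase list has the lowest median, -0.46, and the germline list the highest, 0.34.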

How the data were processed

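Read counts per Ensembl gene, as deposited by the authors, were whole numbers without normalization, 1 table for each of 6 libraries. Per the submitters' processing notes, HISAT2 2.1.0, HTSeq 0.9.1 and DESeq2 1.18.1 were used with mm10; no source used here gives the annotation release, read layout or strand setting. The 5 HTSeq tallies at the end of each table stayed out of all sizes and tests: 36.0 to 38.4% of tallied reads fell in genes, 42.3 to 43.5% in no feature, and 13.8 to 15.0% aligned to several places and went uncounted, which can lower genes with close copies.

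Symbols, exon lengths and exon overlaps came from GENCODE M21 (GRCm38), which matched 52489 of 52636 identifiers, the rest holding 0.0246% of reads in genes. Counts were fitted with edgeR 4.0.16 (R 4.3.3), 6 libraries, no covariate, TMM scaling, filterByExpr with a minimum count of 10, and quasi-likelihood F tests adjusted over 15816 genes (threshold 0.05). SEs and 95% intervals follow from each log2 fold change and its F test. CPM is after TMM, and given as mean ± SD over 3 libraries. The design text calls the libraries biological replicates; no pair within a group agreed within sampling noise (chi-square per degree of freedom 1.88 to 6.60). Counting error of the 10 genes was at most 7.07% per library.

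The 10 genes and all lists were chosen with earlier results of these data known, so counts over lists are descriptions and carry no set test. Named genes were the 10, up to 4 called genes per list, by smallest adjusted p, and named partners of the 10; markers are named as cell checks, and Aire and Glt8d2 for their overlap. The edgeR step was tested on simulated counts with 50 genes changed at each fold. It recovered 72% of 1.5-fold, 88% of 2-fold, 94% of 4-fold and 96% of 8-fold changes, with 8 false calls among 15616 unchanged genes. Alternatives used DESeq2 1.42.0, limma-voom (limma 3.58.1), other scalings and filters, the replicate number as a block, and each library left out.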

Additional observations from a re-analysis of the deposited data

How the results depend on the processing

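Over 15 alternatives, 5 of the 10 genes stayed lower in each, and the number called higher was 2 or 3, depending on Dnmt3a, whose log2 fold change ranged from 0.10 to 0.18 (adjusted p 0.0043 to 0.154). Leaving out a library gave 7 to 8 genes changed, 2 to 3 of them higher and 5 lower. Over the alternatives the log2 fold change was -0.73 to -0.66 for Dnmt1, -0.74 to -0.68 for Uhrf1, -0.77 to -0.71 for Zfp57, -0.58 to -0.52 for Dnmt3b, -0.40 to -0.30 for Tet3, 0.71 to 0.83 for Tet2 and 1.19 to 1.24 for Dnmt3l. Tet1 passed in none and ran from -0.0133 (without wild-type replicate 2, where its sign turned) to 0.0584 with a library left out. Of 780 values of 52 named genes under alternatives, 771 kept direction and call, 8 lost the call and 1 turned sign. Taking the longest transcript as length moved the share differences, knockout minus wild type. They went from -2.03 to -2.78 points for Dnmt3a, from -23.2 to -19.8 for Dnmt3b and from 25.3 to 22.6 for Dnmt3l. The length is the same in both groups, so it cannot set the direction for the genes with the highest and lowest fold of a family. For Dnmt3a and Tet1, whose folds lie between those of their relatives, the direction of the share depends on the lengths taken. With the replicate block 10862 genes changed, 5465 higher and 5397 lower, and 8 of the 10 genes. Deviations of same-numbered libraries correlated at -0.0015 to 0.023, and those of unlike-numbered libraries at -0.0239 to 0.0146. No pairing by number was seen, but so few libraries cannot exclude a shared day or batch. Upper-quartile scaling moved the median of all genes to 0.046 and gave 5769 higher and 5104 lower. Genes near 200 reads per library, such as Tdg, are limited by depth.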

Other observations

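Some relatives, copies and antisense genes of the 10 genes had at most 8 reads in any library. Dnmt3c, a rodent duplicate of Dnmt3b known from male germ cells, had 2, 4 and 5 reads in knockout and 0, 1 and 0 in wild-type libraries. Dppa3, also called Stella, which keeps Uhrf1 from DNA in the egg, had 3, 8 and 3 reads in knockout and 1, 0 and 1 in wild-type libraries. The pseudogenes Tdg-ps and Dnmt3l-ps1 had 1 to 4 and 0 to 1 reads in knockout libraries and 1 to 3 and 0 to 4 in wild-type libraries, and the antisense genes Dnmt3aos and Dnmt3bos 0 and 0 to 1 reads in both groups. The pseudogenes and antisense genes were named after their values were seen.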
